A study of Mus musculus with 9 samples.

Results

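The genes described here are those that wild-type mouse retina expressed at a mean of at least 1 FPKM. FPKM is a read count scaled by gene length and library size, so it compares levels between genes per length of transcript. Each gene also had to carry a symbol in the mouse annotation. Of 35397 rows in the expression table, 34499 had a symbol and 14501 (41.0%) passed. These 14501 genes held 97.9% of the FPKM of the wild-type libraries, and 831 of them were below 1 FPKM in at least 1 library. A further 106 rows reached 1 FPKM without a symbol and are left out.

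The study profiled retina of wild-type and db/db mice in 9 libraries. The 5 wild-type libraries, called wild type 1 to 5, are the only ones used here. The labels give the tissue as retina and the genotype as WT, with no strain, age, sex or treatment. They do not say whether each library came from 1 animal, so the spread between libraries may be partly technical. Reads recovered from the FPKM values came to between 43.0 M (wild type 2) and 47.9 M (wild type 1), so that 1 FPKM on a gene with 1 kb of exon stood for 43.0 to 47.9 reads. The libraries stood about equally far from their mean: the root mean square deviation over genes was 0.12 to 0.13 on the log2 scale. All 5 libraries belong to a single group, so no test between groups can be made, and values are given with their SD and range (n = 5).

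The neural retina turns light into nerve signals. Rods, by far the most numerous cells of the mouse retina, and cones hold the visual pigment in a stacked membrane called the outer segment. Light activates the pigment, the G protein transducin and then a phosphodiesterase, which lowers cGMP and closes a cation channel. Bipolar cells carry the signal to ganglion cells, horizontal and amacrine cells modify it, and Müller glia span the tissue and recycle transmitter and retinoid.

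The labelled tissue was first checked against 6 marker genes. Gnat1, the rod transducin alpha subunit (ENSMUSG00000034837, mm10 chromosome 9, 107674474 to 107679712), stood at 4346 ± 177 FPKM (SD, n = 5) and ranked 5 among all genes. Glul, the glutamine synthetase of Müller glia, stood at 617 ± 24.4 FPKM and ranked 25. Sag, the rod arrestin that ends the light response, stood at 577 ± 35.9 FPKM and ranked 27. Opn1sw, the short-wave cone opsin, had 154 ± 25.4 FPKM, and Rlbp1, a retinoid carrier of Müller glia, had 118 ± 4.24 FPKM. Gad1, a GABA-synthesizing enzyme of amacrine cells, had 43.6 ± 1.13 FPKM. All 6 had at least 42.0 FPKM in each library.

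Expression was concentrated in few genes. The 10 highest genes held 16.2 ± 0.648% of all FPKM (SD, n = 5), the 100 highest 31.0 ± 0.923% and the 1000 highest 54.5 ± 0.781%. The median gene stood at 6.48 FPKM. By level, 9414 genes lay between 1 and 10 FPKM, 4847 between 10 and 100, 225 between 100 and 1000, and 15 above 1000. Protein-coding genes of the nuclear genome numbered 11938 and held 74.0 ± 0.652% of FPKM.

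**Figure D1:**
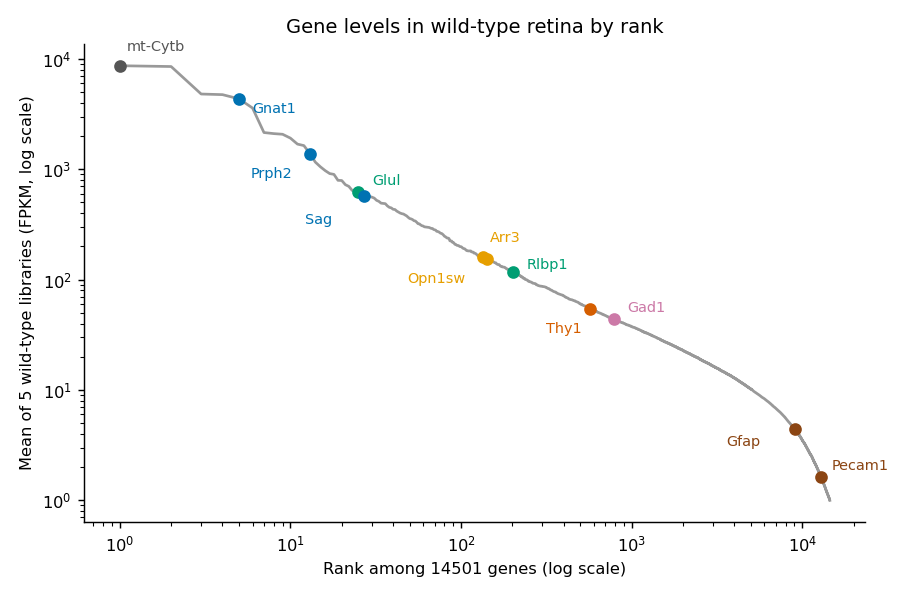
Mean FPKM of the 5 wild-type libraries (log scale) against rank among 14501 genes (log scale), drawn as a grey line with marker genes as points. Gnat1 (rank 5) sits at the top with mitochondrial transcripts. The astrocyte gene Gfap (rank 9005) stands at 4.44 FPKM, and the endothelial gene Pecam1 (rank 12872), at 1.62 FPKM, lies near the threshold of 1 FPKM.

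Transcripts of the mitochondrial genome led the order. mt-Cytb, a subunit of respiratory complex III, was highest, with 7951, 9254, 8761, 8561 and 8851 FPKM in wild type 1 to 5. mt-Co1, a subunit of cytochrome c oxidase, followed with 8641, 8742, 8706, 8047 and 8512 FPKM, and the order of these 2 genes changed between libraries. mt-Nd1, of complex I, had 4807 ± 388 FPKM (SD, n = 5), and mt-Co2, of cytochrome c oxidase, 3588 ± 137 FPKM. Further complex I genes followed, with mt-Nd4 at 2152 ± 88.1 FPKM, mt-Nd5 at 2104 ± 151 FPKM, mt-Nd2 at 2076 ± 215 FPKM and mt-Nd4l at 488 ± 33.6 FPKM, and mt-Atp6, of the ATP synthase, had 899 ± 45.6 FPKM. The 13 protein-coding mitochondrial genes together held 13.5 ± 0.682% of FPKM, from 12.8% in wild type 1 and 4 to 14.4% in wild type 2. Of the 13, mt-Nd6 (417 to 678 FPKM) and mt-Atp8 (135 to 209.6 FPKM) differed by at least 1.5 times between libraries.

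Copies of mitochondrial genes in the nuclear genome also held signal. Unprocessed pseudogenes in a block of chromosome 1 (24611535 to 24616197, mm10), 7 of them expressed, share at least 95% of their sequence over at least 200 bases with mitochondrial genes. This block held 2.45 ± 0.137% of FPKM, and its members Gm10925 and Gm28437 ranked 10 and 11. mt-Co3, a cytochrome c oxidase subunit, was highest in wild type 2 (1945 FPKM, against 1546 to 1572 FPKM elsewhere), while its copy Gm28437 was lowest there (1356 FPKM, against 1700 to 1827 FPKM). The reads of the pair summed to between 2574 and 2665 in each M reads of the library, a 1.04-fold range, against 1.26-fold for mt-Co3 alone. Other sums with copies were no narrower: the range went from 1.28-fold to 1.36-fold for mt-Nd3, from 1.14-fold to 1.2-fold for mt-Atp6 and from 1.1-fold to 1.12-fold for mt-Nd4. Where reads of these sequences came from was not tested. These copies were looked up after the values had been seen.

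Rod genes were among the highest nuclear genes. Gnat1 had 4205, 4305, 4399, 4626 and 4196 FPKM in wild type 1 to 5, a 1.1-fold range with wild type 4 highest. By the deposited FPKM, the lowest of the 13 genes of the rod list was Cnga1, a subunit of the cation channel, at 119.9 FPKM. Cngb1, another subunit of that channel, was close at 123 FPKM, and their order depends on the length used for scaling.

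The other rod genes kept narrow ranges. Of the 3 phosphodiesterase subunits, the inhibitory Pde6g had 700.0 ± 26.8 FPKM, the catalytic Pde6a 613 ± 35.8 FPKM and the catalytic Pde6b 567 ± 24.1 FPKM. Pde6a was above Pde6b in 5 of 5 libraries, by 1.03 to 1.15 times, but divided by the length of the principal transcript in place of all annotated exons the order turned, with 626 FPKM for Pde6a and 1017 FPKM for Pde6b. Nrl, the transcription factor that directs the rod fate, stood at 291 ± 13.6 FPKM, and its target Nr2e3, which represses cone genes, at 218 ± 11.5 FPKM. The channel subunits Cnga1 (119.9 ± 6.0 FPKM) and Cngb1 (123 ± 5.38 FPKM) were level with each other within their SDs. By the length of the principal transcript they were not level, with 277 FPKM for Cnga1 and 186 FPKM for Cngb1. The 13 rod genes held 4.97 ± 0.150% of all FPKM, from 4.76% in wild type 1 to 5.11% in wild type 4. A gene is called wide below where its highest library was at least 1.5 times its lowest. None of the 13 was wide, where 12.5% of all 14501 genes were. Wide genes made up 17.6% of genes between 1 and 10 FPKM, 2.95% of those between 10 and 100, and 4.44% of those between 100 and 1000. A count of 0 in a list of this size and level, here and for the lists below, is therefore near the background.

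Genes that rods and cones share formed the next group, with 3.30 ± 0.122% of FPKM in 29 genes. Prph2 and Rom1, which shape the rim of the outer segment disc, stood at 1389 ± 47.5 and 1161 ± 49.9 FPKM. Rbp3, the retinoid-binding protein of the space around photoreceptors, had 868, 1035, 980.3, 969 and 1009 FPKM in wild type 1 to 5. Rcvrn, the calcium sensor recoverin, had 791 ± 19.0 FPKM, with 825 FPKM in wild type 4 and 779 to 790.3 FPKM in the others. Unc119, a carrier of lipid-modified transducin alpha, had 491 ± 25.9 FPKM. Crx, the transcription factor common to rods and cones, had 385 ± 16.1 FPKM. Aipl1, the chaperone of the phosphodiesterase, had 297 ± 28.4 FPKM. Pdc, encoding phosducin, which binds transducin beta and gamma, was the only wide gene of the 29. It had 489.8, 739, 586, 403 and 581 FPKM, a 1.83-fold range, which fell to 1.45-fold without wild type 2.

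The upstream sequences of 4 of these genes are shown because the factor CRX is known to bind a core of the letters TAATCC, and all 4 windows hold it. Each is the 250 bases before the RefSeq start in GRCm38.p6, read 5′ to 3′ on the strand of the gene. Capitals mark the CRX core, read here on the opposite strand as GGATTA, and the half-site TGCTGA of the rod factor NRL, or its reverse TCAGCA.
Rbp3, chr14:33953753-33954002, plus strand: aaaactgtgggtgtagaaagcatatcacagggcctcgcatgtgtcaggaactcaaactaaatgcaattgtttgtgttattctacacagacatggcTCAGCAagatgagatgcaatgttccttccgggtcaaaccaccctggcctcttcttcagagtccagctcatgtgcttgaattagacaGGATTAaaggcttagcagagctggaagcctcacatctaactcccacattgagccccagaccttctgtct
Sag, chr1:87803430-87803679, plus strand: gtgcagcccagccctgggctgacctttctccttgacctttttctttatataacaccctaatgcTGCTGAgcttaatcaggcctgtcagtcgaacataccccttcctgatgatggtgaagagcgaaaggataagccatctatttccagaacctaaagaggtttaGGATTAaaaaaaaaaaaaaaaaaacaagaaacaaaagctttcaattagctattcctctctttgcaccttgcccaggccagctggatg
Crx, chr7:15879956-15880205, minus strand: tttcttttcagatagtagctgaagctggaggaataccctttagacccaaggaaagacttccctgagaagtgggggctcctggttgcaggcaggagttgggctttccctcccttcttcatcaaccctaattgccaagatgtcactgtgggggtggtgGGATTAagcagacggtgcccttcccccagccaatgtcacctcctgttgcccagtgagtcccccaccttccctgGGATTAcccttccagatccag
Aipl1, chr11:72037510-72037759, minus strand: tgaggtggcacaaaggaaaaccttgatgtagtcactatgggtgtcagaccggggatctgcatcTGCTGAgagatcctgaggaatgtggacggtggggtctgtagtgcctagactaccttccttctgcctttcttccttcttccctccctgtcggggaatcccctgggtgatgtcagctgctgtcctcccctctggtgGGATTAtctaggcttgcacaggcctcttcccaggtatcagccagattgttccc

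The CRX core lay 69 to 64 bases before the start in Rbp3, 87 to 82 in Sag and 53 to 48 in Aipl1. In Crx it lay at 94 to 89 and again at 21 to 16. The NRL half-site lay 187 to 182 bases before the start in both Sag and Aipl1 and 155 to 150 in Rbp3, overlapping no CRX core. Searched on both strands, the CRX core was in 14 of the 37 rod, cone and shared photoreceptor genes that have an entry in the promoter table (37.8%). It was in 6.38% of all 27025 promoters of the same length and in 5.16% of those of the 9412 expressed protein-coding genes with an entry. Among genes of bipolar, horizontal, amacrine, ganglion and Müller cells it was in 6 of 54 (11.1%), and among ribosomal protein genes in 0 of 20. The NRL half-site was in 9 of the 37 (24.3%), against 15.8% of all promoters and 12.3% of those of expressed protein-coding genes. Among the same bipolar, horizontal, amacrine, ganglion and Müller genes it was in 10 of 54 (18.5%). By list it was in 2 of 8 rod, 1 of 7 cone and 6 of 22 shared photoreceptor genes. It was in 3 of 16 bipolar, 2 of 15 amacrine, 3 of 9 ganglion and 2 of 11 Müller genes. The 14 genes with the core ran from Rbp3 (972 FPKM) to Thrb (10.6 FPKM). A match describes the letters and does not show that a factor binds there.

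Cone genes were far lower. The 11 cone genes held 0.278 ± 0.00964% of FPKM, from 0.266% in wild type 1 to 0.292% in wild type 3. Gnb3, a transducin beta subunit that ON bipolar cells also use, was highest at 183 ± 12.2 FPKM. Arr3, the cone arrestin, had 165, 154, 179, 138 and 157 FPKM in wild type 1 to 5, and Gnat2, the cone transducin alpha subunit, 68.8 ± 4.65 FPKM. Thrb, the thyroid hormone receptor needed for the middle-wave opsin, had 10.6 ± 0.322 FPKM.

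The 2 cone opsins did not keep the same ratio in all libraries. Opn1sw had 127, 170.3, 136, 189 and 148 FPKM in wild type 1 to 5, and Opn1mw, the middle-wave opsin, had 97.9, 89.9, 115, 72.8 and 101 FPKM. The library highest for Opn1sw, wild type 4, was the lowest for Opn1mw. The ratio of middle-wave to short-wave opsin was 0.772, 0.528, 0.849, 0.386 and 0.682, a mean of 0.644 ± 0.187, and it was below 1 in 5 of 5 libraries. Opn1mw was wide (1.58-fold), and its range fell to 1.28-fold without wild type 4 and to 1.38-fold without wild type 3. In mouse the short-wave opsin is denser in the ventral retina, and the labels do not say which region of the retina was taken.

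Phototransduction uses paralogous proteins in rods and cones, which allows a comparison per length within each library. In all 9 pairs the rod member was higher in 5 of 5 libraries. The smallest p that an exact two-sided sign-flip test over 5 libraries allows is 0.0625, so no pair could pass a threshold of 0.05. The ratio of FPKM was 63.4 ± 3.37 for transducin alpha (Gnat1 over Gnat2) and 16.5 ± 1.85 for transducin gamma (Gngt1 over Gngt2). For the catalytic phosphodiesterase (Pde6b over Pde6c) it was 17.2 ± 1.18. Gngt2 stood at 17.7 ± 1.48 FPKM and Pde6c at 33.0 ± 2.97 FPKM. For the channel the ratio was 34.3 ± 2.41 (Cnga1 over Cnga3) and 28.4 ± 2.46 (Cngb1 over Cngb3), whose cone members had 3.50 ± 0.177 FPKM (Cnga3) and 4.35 ± 0.413 FPKM (Cngb3).

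Of the other pairs, arrestin and transducin beta had lower ratios than these. The ranges of the exchanger and of the inhibitory phosphodiesterase subunit took in that of transducin alpha (58.8 to 66.1). For arrestin (Sag over Arr3) the ratio was 3.67 ± 0.519, and for transducin beta (Gnb1 over Gnb3) 5.76 ± 0.232. Gnb1 is a beta subunit of many cell types and its 1052 ± 33.1 FPKM cannot be assigned to rods alone. The exchanger Slc24a1 was 70.2 ± 10.1 times its cone counterpart Slc24a2, which neurons also express. For the inhibitory phosphodiesterase subunit the ratio was 69.4 ± 22.3, ranging from 51.0 to 97.5, with Pde6h at 12.9, 12.8 and 13.9 FPKM in wild type 1 to 3 and at 8.12 and 6.76 FPKM in wild type 4 and 5.

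**Figure D2:**
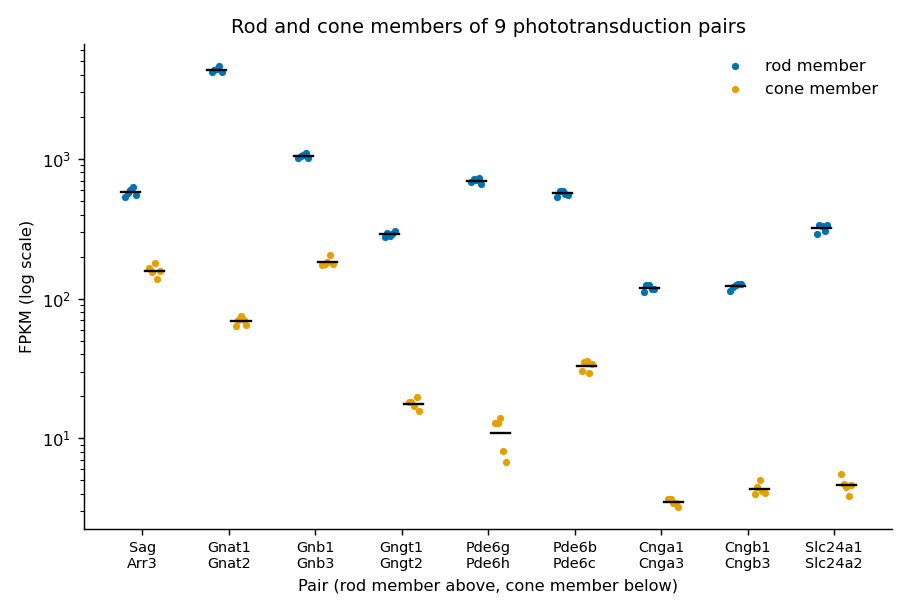
FPKM (log scale) of the rod (blue) and cone (orange) member of 9 phototransduction pairs, 1 point per wild-type library with a black line at the mean. The rod member is above the cone member in every library, by 3.24 to 4.55 times for arrestin and by 58.8 to 66.1 times for transducin alpha.

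The length used for scaling bears on these levels. The FPKM values divide by the union of all annotated exons, which for Sag is 8.90 kb, where its principal transcript has 1.72 kb. Divided by that transcript, Sag would stand at 2987 FPKM and rank 7, and the arrestin ratio would be 11.0 ± 1.55 rather than 3.67. By reads alone Sag ranked 6. For transducin alpha, whose members have unions of 3.03 and 3.0 kb, the ratio was 56.5 ± 3.01 by principal transcript. The transducin gamma ratio was 41.5 ± 4.64 and the ratio of inhibitory phosphodiesterase subunits 135 ± 43.5 by that length.

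Synaptic genes of photoreceptor terminals were all expressed. Each of 19 ribbon synapse genes passed 1 FPKM, and together they held 0.665 ± 0.0166% of FPKM. Cplx4, a complexin of ribbon synapses, had 267 ± 12.9 FPKM, and Slc17a7, the vesicular glutamate transporter of photoreceptors and bipolar cells, 258 ± 11.5 FPKM. Snap25 and Vamp2, of the vesicle fusion machinery of all synapses, had 204 ± 3.06 and 166 ± 3.40 FPKM. Cacna1f, the calcium channel of the photoreceptor terminal, had 83.3 ± 3.60 FPKM. None of the 19 was wide.

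Bipolar genes were lower. The 20 bipolar genes held 0.203 ± 0.00482% of FPKM, and none was wide. Scgn, a calcium-binding protein gene, had 41.5, 42.4, 44.1, 42.7 and 38.9 FPKM in wild type 1 to 5, a mean of 41.9 ± 1.93 FPKM. Cabp5, another calcium-binding protein gene, had 39.3 ± 1.23 FPKM, and the G protein gamma subunit gene Gng13 had 38.5 ± 1.77 FPKM. Grm6, the glutamate receptor by which ON bipolar cells sense photoreceptors, had 33.1 ± 2.84 FPKM, and its channel Trpm1 had 23.8 ± 1.14 FPKM.

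Amacrine genes ranged from GABA markers to rare transmitter types. Gad1 had 43.5, 44.5, 44.8, 43.3 and 42.0 FPKM and was 3.38 ± 0.164 times Gad2 (12.9 ± 0.373 FPKM), with the ratio above 1 in 5 of 5 libraries. C1ql1, a secreted synaptic organizer, had 42.5 ± 3.71 FPKM. Slc6a9, the glycine transporter of glycinergic cells, had 32.6 ± 1.70 FPKM, and Slc32a1, which loads both transmitters into vesicles, 29.7 ± 1.5 FPKM. The cholinergic gene Chat of starburst cells had 3.86 ± 0.323 FPKM. Th, the dopamine-synthesizing enzyme of a sparse cell type, had 2.58 FPKM in wild type 1 and 1.64 to 1.82 FPKM in the others, and was the only wide gene of the 17. The list held 0.0971 ± 0.00237% of FPKM.

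Ganglion cell genes were headed by structural proteins. Sncg, gamma-synuclein, had 128, 117, 105, 132 and 117 FPKM in wild type 1 to 5. The neurofilament genes Nefl (68.9 ± 3.35 FPKM) and Nefm (26.0 ± 1.21 FPKM) and the surface protein gene Thy1 (54.6 ± 4.03 FPKM) followed, and these are not limited to ganglion cells. Factors that define the class were low, with Pou4f1 at 4.53 ± 0.237 FPKM and Pou4f2 at 2.61 ± 0.148 FPKM. Opn4, the pigment melanopsin of light-sensitive ganglion cells, had 1.81 FPKM in wild type 1 and 1.28 to 1.52 FPKM in the others. Isl2 and Pou4f3 were the wide members of the 16 (12.5%, the same share as over all genes).

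Horizontal cell genes lay near the threshold. Calb1, the calcium-binding protein calbindin, had 12.9 ± 0.545 FPKM and is also made by amacrine and ganglion cells. Megf11, a surface protein that spaces horizontal cells, had 2.91 ± 0.134 FPKM. The transcription factor gene Lhx1 (1.15 ± 0.0965 FPKM) and the gap junction gene Gja10 (1.06 ± 0.0963 FPKM) were just above 1 FPKM. Onecut1 and Onecut2 were below it, at 0.442 and 0.402 FPKM. In bulk tissue, fewer cells of a type and less RNA per cell cannot be told apart, and this holds for every list here.

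Müller glia carried the highest signal outside photoreceptors. Glul had 610.4, 629, 642, 578 and 626 FPKM in wild type 1 to 5, a 1.11-fold range. Apoe, a lipid carrier, had 320.4, 225, 221, 317 and 283 FPKM, with wild type 2 and 3 lowest. Dkk3, a secreted protein of the Dickkopf family, had 238 ± 11.3 FPKM, and Clu, clusterin, had 159 ± 14.9 FPKM. The 17 Müller genes held 0.619 ± 0.0245% of FPKM, with 37.5% of that in Glul. The transcription factor gene Sox9 (2.02 to 3.16 FPKM) was the wide member.

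Across the lists, the rod, cone and shared photoreceptor genes held 8.55 ± 0.259% of all FPKM and 87.5 ± 0.594% of the FPKM of 12 retinal lists. In each library the 5 highest lists were, in order, rod, shared photoreceptor, Müller, cone and bipolar. Ganglion (0.123% to 0.138%) and pericyte (0.120% to 0.135%) lists followed and overlapped, and amacrine (0.0953% to 0.101%) lay below both. Counted as shares of reads, which do not divide by length, mean bipolar (0.249%) was above cone (0.194%) and amacrine (0.108%) above ganglion (0.10%), so both of these orders depend on the scale. A list's share follows which genes it names and does not estimate cell numbers. In the pericyte list 90% came from Vtn, the adhesion protein vitronectin (299.8 ± 15 FPKM), which photoreceptors also make.

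**Figure D3:**
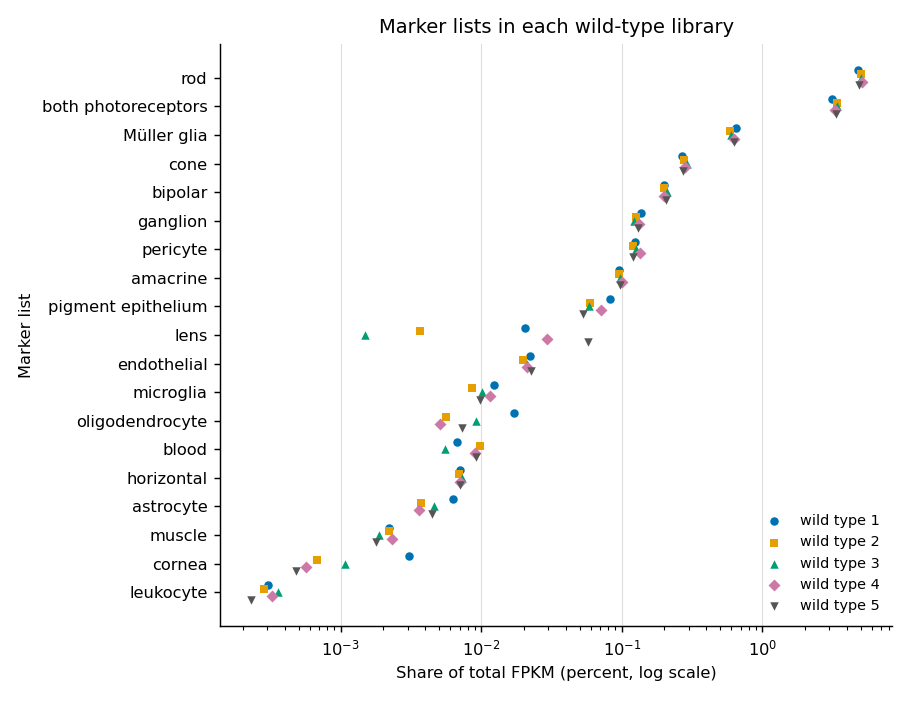
Share of total FPKM (percent, log scale) held by each of 19 marker lists, with 1 symbol per wild-type library. Neural and Müller lists cluster tightly, whereas the lens list spreads from 0.00149% in wild type 3 to 0.0576% in wild type 5 and the cornea and oligodendrocyte lists are highest in wild type 1.

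Vascular and immune genes were low. Kdr, the VEGF receptor of endothelium, had 14.3 ± 0.649 FPKM, and Ly6c1, an endothelial surface protein gene, 9.59 ± 0.789 FPKM. Flt1, another VEGF receptor, had 8.53 ± 0.785 FPKM. Esam, an endothelial adhesion protein, had 6.62 ± 0.423 FPKM. Cldn5, the tight junction protein claudin-5, ranged from 3.83 FPKM in wild type 2 to 7.37 FPKM in wild type 5. The pericyte gene Rgs5 had 17.1 ± 0.653 FPKM and Pdgfrb, the receptor that recruits pericytes, 4.82 ± 0.346 FPKM. Acta2, the actin of smooth muscle, had 3.09 to 4.97 FPKM. Of 15 microglial genes 8 passed 1 FPKM, led by the protease gene Ctss (7.25 ± 0.884 FPKM) and the complement genes C1qb (4.04 ± 0.584 FPKM), C1qa (2.94 ± 0.407 FPKM) and C1qc (2.84 ± 0.634 FPKM), and 7 did not, Cx3cr1 (0.946 FPKM) and Tmem119 (0.670 FPKM) among them. All 6 blood leukocyte genes were below 1 FPKM, the highest being S100a9 at 0.415 ± 0.206 FPKM.

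Glycolytic genes, which photoreceptors use heavily to make lactate in the presence of oxygen, were high. All 22 genes of glycolysis and lactate formation passed, with 1.45 ± 0.0732% of FPKM. Pkm, pyruvate kinase, had 634, 689.7, 647, 609 and 638 FPKM in wild type 1 to 5, and Aldoa, aldolase, had 576 ± 27.6 FPKM. Ldha, lactate dehydrogenase A, had 358 ± 29.9 FPKM and Eno1, enolase, 297 ± 17.3 FPKM. Hk1, the hexokinase of most neurons, was steady at 143 ± 10.2 FPKM. Hk2, the hexokinase of photoreceptors, had 72.1, 162, 105, 58.4 and 91.9 FPKM, a 2.78-fold range at 26499 reads per library, where counting error is 0.614%. Wild type 2 was highest and wild type 4 lowest, and the libraries stood in the same order for Pdc.

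Among nuclear genes of oxidative phosphorylation, the 30 of the list held 0.750 ± 0.0174% of FPKM, and none was wide, where 2.95% of all genes between 10 and 100 FPKM were. Atp5b and Atp5a1, subunits of the ATP synthase, had 241 ± 5.87 and 209 ± 6.0 FPKM, and the cytochrome c oxidase subunit genes Cox8a and Cox6a1 had 224 ± 14.9 and 150.1 ± 7.49 FPKM. The 30 ribosomal protein genes held 1.0 ± 0.0515%, lowest in wild type 5 (0.915%). Rplp1, of the ribosomal stalk, had 591, 539, 529.5, 543 and 410.4 FPKM, with wild type 5 again lowest, and Rps15 had 350.0 ± 20.6 FPKM. Rpl8 and Rpl4, of the large subunit, had 182 ± 13.7 and 163 ± 3.49 FPKM. Eef1a1, the elongation factor that brings tRNA to the ribosome, had 794 ± 29.3 FPKM, and the ubiquitin gene Ubb had 627 ± 49.2 FPKM.

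The spread of each gene was then described over all 14501 genes. The SD of log2(FPKM + 1) over the 5 libraries had a median of 0.08 and a 90th percentile of 0.19. The highest library was at least 1.5 times the lowest in 1807 genes (12.5%) and at least 2 times in 630 (4.34%), while 56.5% stayed within 1.2 times. The variance of recovered reads was above the Poisson value in 92.8% of genes, or in 80.1% if each fragment gave 2 reads. By kind of gene, 6.12% of nuclear protein-coding genes were wide, against 42.6% of 1087 processed pseudogenes and 88.7% of 97 miRNA genes, whose short models collect few reads.

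**Figure D4:**
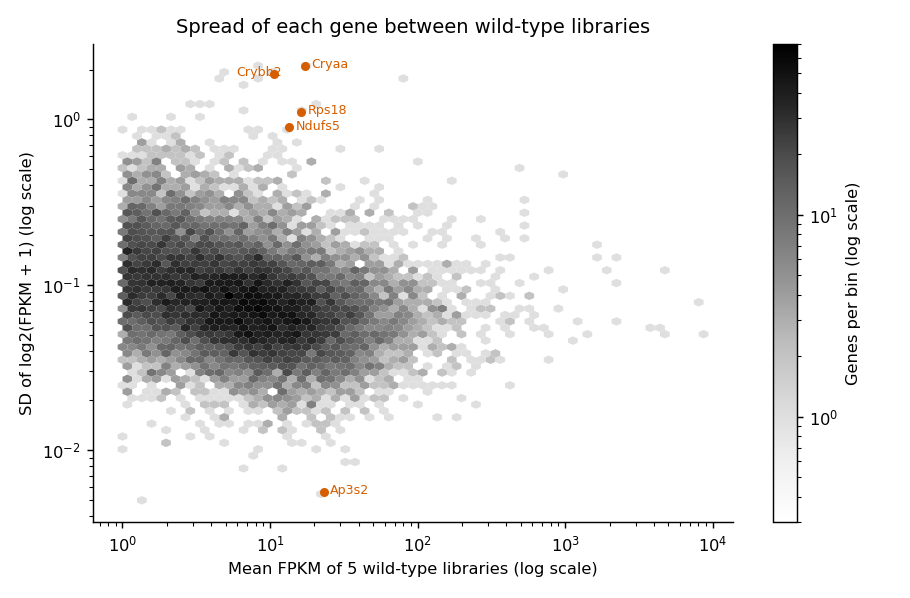
SD of log2(FPKM + 1) over the 5 wild-type libraries against mean FPKM (both log scales), with shading for the number of genes per bin. Most genes lie near the median of 0.08, and Cryaa (2.11), Crybb2 (1.89), Rps18 (1.11) and Ndufs5 (0.89) stand above them, with Ap3s2 at the bottom.

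Among named genes at 10 FPKM or more, a pair of lens genes differed most between libraries. Cryaa, the lens alpha-crystallin, had 15, 1.80, 0.517, 25.4 and 43.3 FPKM in wild type 1 to 5, an 83.7-fold range. Crybb2, a beta-crystallin, had 10.5, 1.39, 0.272, 13.9 and 27.4 FPKM in the same order of libraries, and Cryba1 (8.51 FPKM) and Crygs (6.37 FPKM) had it too. Of the 21 lens genes 10 passed 1 FPKM, and 3 of these, Crybb3, Crygb and Crygc, passed through wild type 5, with means of 0.918, 0.984 and 0.639 FPKM without it. The summed level of the list ran from 3.95 FPKM in wild type 3 to 151 FPKM in wild type 5. Its share of FPKM averaged 0.0224 ± 0.0228%, and 0.0136% without wild type 5. As a share of reads it was 0.00961%. Cryab, a small heat shock crystallin that retina makes as well, ranged over 16.1 to 28.4 FPKM, lowest in wild type 2 and highest in wild type 5.

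Among the other wide genes, Fbln1, Optc and Penk were lowest in wild type 2 and 3 and highest in wild type 4. Fbln1, an extracellular matrix protein, had 14.5, 4.90, 6.04, 20.5 and 9.77 FPKM, and Optc, the vitreous protein opticin, had 16.3, 5.74, 5.76, 19.3 and 9.40 FPKM. Penk, the enkephalin precursor of some amacrine cells, had 32.8, 15.7, 20.1, 50.3 and 41.3 FPKM. The lens list was also lowest in wild type 2 and 3, and whether surrounding eye tissue bears on these genes was not tested.

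Pigment epithelium genes moved by less. Ttr, the thyroxine and retinol carrier transthyretin, had 122, 88.3, 83.9, 106 and 74.5 FPKM, and it made up 55.1% of its list. Rgr, a retinoid-isomerizing opsin of pigment epithelium and Müller glia, had 32.8, 23.7, 20.3, 28.7 and 16.8 FPKM. Rpe65, the isomerase of the visual cycle, had 14.7 ± 1.90 FPKM, and the melanosome gene Pmel had 7.80 ± 0.840 FPKM. Of the 11 genes that passed, 6 (54.5%) were wide, against 12.5% of all 14501 genes and 17.6% of those between 1 and 10 FPKM. The list held 0.0648 ± 0.0117% of FPKM (0.0410% of reads), highest in wild type 1 (0.0817%) and lowest in wild type 5 (0.0525%).

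Wild type 1 alone was high in a set of brain genes. Camk2a, a calcium-dependent kinase, had 35.9 FPKM there and 10.6 to 12 FPKM in the other 4 libraries. Nrgn, the postsynaptic protein neurogranin, had 24.4 against 7.93 to 8.50 FPKM, and Ddn, the dendritic protein dendrin, 20.5 against 2.41 to 3.26 FPKM. Without wild type 1 their ranges were 1.14-fold, 1.07-fold and 1.35-fold. A list of 16 forebrain genes, chosen after values had been seen and with Camk2a, Nrgn and Ddn in it, summed to 242 FPKM in wild type 1 and to 157 to 165 FPKM elsewhere. Of the 16, 15 were highest in wild type 1 and 12 passed 1 FPKM. Over all 14501 genes, 3319 were highest in that library. Because the list was chosen after the values, the count of 15 is not independent support for the pattern. Without Camk2a, Nrgn and Ddn the other 13 summed to 161 FPKM in wild type 1 and to 136 to 142 FPKM elsewhere. Most of the excess therefore lay in genes picked for it. The forebrain factor gene Emx1 stood at 0.172 FPKM in wild type 1 and at 0.0703 to 0.165 FPKM in the others.

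All 6 myelin genes, all 4 cornea genes and 2 of 4 astrocyte genes were highest in wild type 1, as were 3319 of all 14501 genes. Of these lists, 1 myelin gene and 2 cornea genes did not pass 1 FPKM. Mbp, the myelin basic protein, had 20.3, 6.55, 11.1, 5.57 and 8.15 FPKM in wild type 1 to 5. Cnp, a myelin enzyme, had 5.87 FPKM against 3.14 to 4.02 FPKM, and Mobp, a further myelin protein gene, had 5.47 against 0.634 to 2.58 FPKM. Mog, a myelin surface protein, passed the threshold through wild type 1, with 2.02 FPKM there and a mean of 0.783 FPKM in the others. The share of the oligodendrocyte list was 0.00885 ± 0.00484% of FPKM, and 0.00681% without wild type 1. By principal transcript length it was 0.0434%, and as a share of reads 0.0152%. The epithelial keratin gene Krt5 had 4.0 FPKM in wild type 1 and 0.429 to 0.948 FPKM elsewhere, and the corneal gene Aldh3a1 had 2.41 FPKM against 0.678 to 1.47 FPKM. Both passed the threshold of 1 FPKM through that library. Gfap, the astrocyte filament protein that stressed Müller glia also make, had 7.29, 2.92, 4.25, 2.96 and 4.80 FPKM, and S100b, a calcium-binding protein of astrocytes, 8.10 against 5.31 to 6.43 FPKM. The other astrocyte genes were highest elsewhere, Pdgfra in wild type 3 (1.38 FPKM, against 1.36 FPKM in wild type 1) and Pax2 in wild type 5 (0.150 against 0.108 FPKM). Lars2, the mitochondrial leucyl-tRNA synthetase, had 27.5 against 9.80 to 13.3 FPKM. What part other tissue has in the levels of wild type 1 was not tested.

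Genes of the major histocompatibility region split the libraries differently. H2-K2 (chromosome 17, 33974659 to 33978827, mm10), a class I gene chosen after values had been seen, had 10 and 10.8 FPKM in wild type 2 and 3 and 0.263 to 0.403 FPKM in wild type 1, 4 and 5. Its neighbour Rps18 (33951999 to 33956001), a ribosomal protein gene, had 31.3 and 29.7 FPKM in wild type 2 and 3 and 6.0 to 7.66 FPKM elsewhere. H2-D1, a class I gene further along the chromosome, had 14.3 and 13.0 FPKM against 6.92 to 8.79 FPKM, and H2-K1 had 6.24 and 7.26 FPKM against 4.41 to 5.53 FPKM. Adding 4 near-identical copies to Rps18 lowered its range from 5.22-fold to 3.22-fold by reads. Genes of this class are close paralogs, so how reads were shared between them is uncertain.

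**Figure D5:**
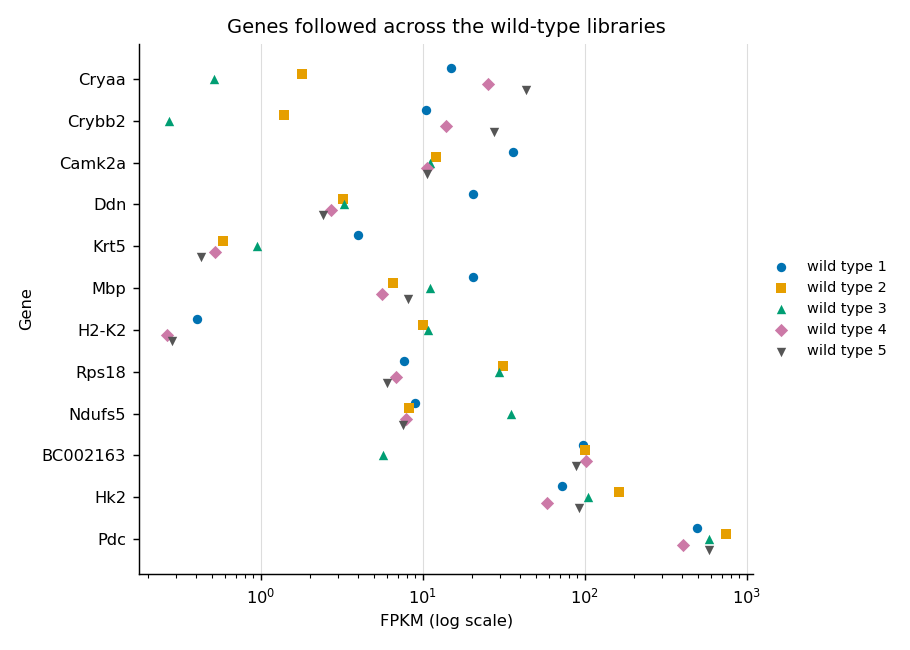
FPKM (log scale) of 12 genes in the 5 wild-type libraries, 1 symbol per library. The crystallins Cryaa and Crybb2 are lowest in wild type 3, Camk2a, Ddn, Krt5 and Mbp are highest in wild type 1, and H2-K2 and Rps18 are high in wild type 2 and 3 only.

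For some genes the sum with a near-identical copy varied less than the gene alone. Ndufs5, a subunit of complex I, had 8.89, 8.17, 35.2, 7.85 and 7.55 FPKM in wild type 1 to 5, while the pseudogene BC002163, 99.4% identical over 319 bases, had 97.9, 100, 5.70, 102 and 88.5 FPKM. The reads of both summed to 39.2, 39.1, 32.2, 39.4 and 34.9 in each M reads, a 1.22-fold range against 4.66-fold and 17.9-fold alone. Rps27rt (23.3 to 69.8 FPKM) and Rps27, identical over 307 bases, summed to a 1.29-fold range, against 3.0-fold and 2.19-fold alone. Ppia, the peptidyl-prolyl isomerase often used to scale expression, ranged 2.06-fold alone and 1.2-fold with 19 near-identical rows. Gapdh stood at 15.3 ± 2.82 FPKM, far below the other glycolytic enzymes named here, but its row held 5.65% of the reads of a set with 76 near-identical rows, led by Gm13394. The other widest named genes were Mir182, a miRNA of photoreceptors, whose 4.68 to 15.9 FPKM rest on 36.0 reads per library, and Hk2.

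At the other end, some genes were almost level. Ap3s2, a subunit of an adaptor complex of endosomes, had 23.1, 23.1, 23.0, 23.1 and 23.3 FPKM, a 1.01-fold range, and Ap3m2 of the same complex had 26.5 ± 0.208 FPKM. Chrna6, an acetylcholine receptor subunit of ganglion cells, had 37.8 ± 0.224 FPKM and Sec62, of the translocation channel, 32.1 ± 0.194 FPKM. Gigyf2, Ogdhl, Hdac6, Armc8, Gdi2 and Atcay also stayed within 1.02 times. Their SDs are below the counting error of 1.14% to 1.58%, or 1.27% for Ap3s2, so their order among themselves cannot be resolved at this depth.

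The threshold of 1 FPKM cut through a continuous range. Fcamr, Ccm2l and Tbx5 lay just above it, each with a mean of 1.0 FPKM, and Kif26a (0.999 FPKM), Fam228b (0.998 FPKM) and Trpv6 (0.998 FPKM) just below. Kif26a had 1.14 FPKM in wild type 1 and 0.954 to 0.978 FPKM elsewhere. None of the 6 was on the same side of 1 FPKM in all 5 libraries.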

How the data were processed

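RNA was measured by sequencing in retina from 9 mouse samples, 5 of them wild type. Libraries were made from 1.3 ug of total RNA with a SMARTER mRNA kit, per the labels' protocols. The authors deposited FPKM values for 35397 genes, on genome mm10 per the submitters' processing notes. How reads were aligned and counted, and whether strand was used, is not given in the sources used here. Columns were matched to samples by group word and number, an inference from their names. No column lacked a sample.

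Symbols, positions and kinds of gene came from GENCODE M21, on the same assembly, and promoters from RefSeq (GRCm38.p6). FPKM times union exon length moved in whole steps, which gave the reads per library (43.0 M to 47.9 M). Of the values under 20 reads, 99.1% to 99.2% were whole within 0.1 read. Of the whole values of at least 2 reads, 72.5% to 73.1% were even, so a read need not be a separate fragment and counting errors may be larger than given. Depth limits mainly genes with few reads. These are genes of low FPKM and also short ones, such as Mir182, with 36.0 reads at 10.6 FPKM.

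Levels are means with SDs over 5 libraries, without a pseudocount, and spread is the SD of log2(FPKM + 1). No test between groups was made, since all libraries are of 1 group. Ratios within libraries are given without a test, because an exact sign-flip test over 5 libraries cannot go below p = 0.0625. Near-identical rows were found with blastn (at least 95% identity over at least 200 bases). Where a symbol had several rows, the highest was used. On simulated data the scripts recovered the known depths, and genes given a larger spread mostly ranked among the widest. The simulated reads were independent, so the excess of even values in the data was not part of this check. Python 3.11.15, numpy 2.4.6, pandas 2.3.3 and matplotlib 3.10.9 were used.

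Genes named are the 30 highest, the 4 highest of each list, all genes of the rod and cone pairs, the 15 widest and 10 steadiest at 10 FPKM or more, and 3 on each side of 1 FPKM. Symbols that join Gm, LOC, AC, AL, BC or CT to a number, Rik names, names ending in -ps and names with a dot were left out. Some genes that the rule selects are not reported here. Other genes were named after their values were seen. The genes and lists were chosen with earlier results of these data known. Alternatives tried were other thresholds, denominators, lengths, scalings and pseudocounts and leaving out each library.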

Additional observations from a re-analysis of the deposited data

Results flagged for a closer look

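Among the genes named here and those the naming rule selects, in 18 of 219 checked (8.22%) and 1 of 29 lists, 1 library stood apart from the other 4 by more than 0.71 of the range (Dixon's ratio). Chance flags about 1 in 20. The genes checked include the widest ones and others named after their values were seen, so 8.22% cannot be set against that rate. Of the 19, 12 were high in wild type 1, among them Krt5, Krt12 and the cornea list that holds both.

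In wild type 1 the values, with those of the other libraries, were 35.9 FPKM for Camk2a (10.6 to 12), 24.4 for Nrgn (7.93 to 8.50), 20.5 for Ddn (2.41 to 3.26) and 20.8 for the neuronal gene Nell2 (11.4 to 11.9). Lars2 had 27.5 FPKM (9.80 to 13.3). The keratin genes Krt5 and Krt12 had 4.0 FPKM (0.429 to 0.948) and 1.31 FPKM (0.154 to 0.331), and the cornea list that holds them had 0.00304% of FPKM (0.000479% to 0.00107%). C1qa, a complement gene of microglia, had 3.66 FPKM (2.70 to 2.82), and Kif26a had 1.14 FPKM (0.954 to 0.978). Th had 2.58 FPKM (1.64 to 1.82) and Arc 1.99 FPKM (0.610 to 0.935). Camk2a, Nrgn, Lars2, Ddn and Nell2 were picked for this pattern or for their spread, so their number is not independent support for it.

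In wild type 3 Ndufs5 was high at 35.2 FPKM (7.55 to 8.89) and its near-copy BC002163 was low at 5.70 FPKM (88.5 to 102). In wild type 2 mt-Co3 had 1945 FPKM (1546 to 1572) and its copy Gm28437 had 1356 FPKM (1700 to 1827). Ndufs5 was picked for its spread, and BC002163 and Gm28437 were looked up after values had been seen. Wild type 4 was highest for Rcvrn at 825 FPKM (779 to 790.3), for Gnb3 at 204 FPKM (175 to 183) and for Slc6a9 at 35.6 FPKM (31.5 to 32.6).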

How the results depend on the processing

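Among the 9 pairs the rod member stayed above the cone member under every alternative run. Without genes of the mitochondrial genome, the top 10 genes held 8.30% and the top 100 held 21.2% of FPKM, and without its nuclear copies as well, an alternative added after seeing the data, 7.47% and 19.4%. Without the mitochondrial genome the lists held 5.77% (rod), 0.323% (cone), 3.84% (shared photoreceptor), 0.235% (bipolar), 0.113% (amacrine), 0.151% (ganglion) and 0.720% (Müller). Over protein-coding genes outside it the same lists held 6.71%, 0.376%, 4.46%, 0.274%, 0.131%, 0.176% and 0.837%. These shifts follow from the smaller denominator. As shares of reads, 6 of these 7 lists moved, to 6.24% (rod), 0.194% (cone), 0.249% (bipolar), 0.108% (amacrine), 0.10% (ganglion) and 0.562% (Müller), with longer genes weighing more. Pericyte fell to 0.0758%, pigment epithelium to 0.0410% and lens to 0.00961%, and oligodendrocyte rose to 0.0152%. By principal transcript length, chosen after seeing the data, 4 of the 7 lists moved by at least their SD, to 5.70% (rod), 0.0930% (amacrine), 0.124% (ganglion) and 0.594% (Müller). So did horizontal (0.00613%), microglia (0.00890%), endothelial (0.0256%), pericyte (0.103%) and oligodendrocyte (0.0434%).

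As ratios of reads, the pairs gave 13.9 (arrestin), 9.34 (transducin beta), 30.9 (transducin gamma), 20.5 (phosphodiesterase inhibitor), 29.2 (phosphodiesterase), 54.9 and 56.5 (channel alpha and beta) and 29.9 (exchanger), with transducin alpha within its SD. By principal transcript they gave 11.0 (arrestin), 56.5, 5.48 and 41.5 (transducin alpha, beta and gamma), 135 (phosphodiesterase inhibitor), 26.9 (phosphodiesterase), and 71.3 and 43.0 (channel alpha and beta).

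The number of genes was 16631 at 0.5 FPKM, 12149 at 2 FPKM and 13670 when each library had to reach 1 FPKM. Wide genes numbered 338 at a mean of 5 FPKM or more, and 630 at 2 times. At 5 FPKM fewer genes were counted, and the wide share also fell with level. It was 17.6% between 1 and 10 FPKM and 2.95% between 10 and 100. Leaving out 1 library gave 14463 to 14510 genes and 1414 to 1507 wide genes, since 4 values span less than 5. Every other share and ratio listed here moved by less than its SD when 1 library was left out. The median SD moved by less than 1.5 times. For the share of a fixed list or the ratio of a pair this outcome was certain, since dropping 1 of 5 values cannot move a mean by its SD. It therefore does not show that a value is stable. The lens share, for example, fell from 0.0224% to 0.0136% without wild type 5. Of 32 genes followed, 14 lost their wide call without a single library (18 of 224 settings), and no scaling changed a call.

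No paired analysis was possible because no second group is compared, so that replicate numbers pair no samples. The limits are the unknown animals behind each library, the length used for scaling, reads shared with near-identical rows, and lists whose shares depend on a few genes.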

Other observations

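Of 20 genes of the circadian clock 18 were above 1 FPKM, and 2 of these (11.1%) were wide, near the 12.5% of all genes. The list held 0.150 ± 0.00256% of FPKM (SD, n = 5). Nr1d1, a repressor of the clock, had 74.4, 67.1, 70.8, 78.8 and 78.4 FPKM in wild type 1 to 5, and Tef and Nr1d2, also of the clock's output and feedback, had 41.9 ± 1.26 and 41.7 ± 1.91 FPKM. Hlf, a factor related to Tef, had 28.1 ± 0.613 FPKM. Rorb, an activator of the same pathway that also acts in photoreceptor development, was one of the wide genes, with 17.5, 27.9, 22.9, 16.3 and 24.5 FPKM, lowest in wild type 4 and highest in wild type 2 as Hk2 and Pdc were. Aanat, the enzyme that limits melatonin synthesis, was below the threshold at 0.559 FPKM.

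Immediate-early genes were low, with 16 of 21 above 1 FPKM. Of the 16, 4 (25.0%) were wide, against 12.5% of all genes and 17.6% of those between 1 and 10 FPKM. Btg2, an antiproliferative gene, and Ier3, a stress-induced gene, were highest at 31.8 ± 2.98 and 27.1 ± 1.87 FPKM. Nr4a1 and Jun, transcription factors induced by activity and stress, had 9.71 ± 0.609 and 9.68 ± 0.872 FPKM. Fos had 8.25, 7.13, 9.45, 7.60 and 7.55 FPKM. Arc, a gene of active synapses, was wide and passed the threshold through 1 library, with 1.99 FPKM in wild type 1 and 0.610 to 0.935 FPKM elsewhere.

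All 15 heat shock and folding genes passed, with 0.412 ± 0.0194% of FPKM. Of the 15, 3 were wide, Cryab (23.1 FPKM), Hspa1a (7.39 FPKM) and Bag3 (2.89 FPKM). Among all genes 12.5% were wide, with 17.6% of those between 1 and 10 FPKM and 2.95% of those between 10 and 100. Hsp90aa1, Hspa8 and Hsp90ab1, cytosolic chaperones, had 342 ± 9.42, 313 ± 24.4 and 209 ± 8.82 FPKM, and the mitochondrial chaperonin gene Hspd1 had 45.1 ± 2.46 FPKM. All 10 genes for uptake and breakdown of branched-chain amino acids passed and none was wide. Bcat1, the cytosolic aminotransferase, had 26.4, 28.8, 29.1, 24.6 and 26.3 FPKM, whereas Bcat2, the mitochondrial form, had 2.74 ± 0.373 FPKM. The transporter chain genes Slc3a2 and Slc7a5 had 37.2 ± 1.38 and 13.7 ± 0.828 FPKM, and Dld, the dehydrogenase shared with other complexes, had 29.2 ± 0.718 FPKM.

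Of 12 genes often used to scale expression, 3 (25.0%) were wide, against 12.5% of all genes. These were Ppia, Gapdh and B2m, the light chain of class I molecules (26.2 to 39.9 FPKM). All 3 lie between 10 and 100 FPKM, where 2.95% of genes were wide. Summed with their near-identical rows, Ppia ranged 1.2-fold and Gapdh 1.33-fold, both below 1.5 times. B2m has no near-identical row, so of the 3 it alone stayed wide. Actb (144 ± 7.23 FPKM), Rplp0 (116 ± 7.29 FPKM), Sdha (101 ± 3.81 FPKM) and Hprt (89.3 ± 2.29 FPKM) were the highest of the 12. Igkc, the constant part of an antibody light chain, was named after its values were seen, with 0.864, 1.22, 0.124, 29.6 and 11.8 FPKM in wild type 1 to 5, while the B-cell gene Cd79a stayed at 0.309 ± 0.107 FPKM.

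Red blood cell genes were present at low levels, with Hbb-bs, a beta-globin, at 6.34, 10.8, 5.68, 10.7 and 11.5 FPKM, and Hba-a1, an alpha-globin, at 7.38 ± 1.5 FPKM. Hbb-bt and Hba-a2, from the same clusters, had 3.06 ± 0.875 and 1.55 ± 0.436 FPKM. All 4 globin genes that passed were wide, where 17.6% of all genes between 1 and 10 FPKM were. They are close paralogs, between which the sharing of reads is uncertain. The skeletal muscle genes Mylpf and Acta1 had 2.98 ± 0.455 and 1.53 ± 0.322 FPKM.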
